A study of Mus musculus with 6 samples.

Results

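The genes described here encode the signalling chains of the B cell receptor and the kinases and adaptors that act directly on them. They are 9 genes, chosen by symbol, of 30803 rows in each library: Cd79a, Cd79b, Cd22, Blk, Blnk and Bank1, which are largely restricted to B lineage cells among blood cells, and the kinases Btk, Syk and Lyn, which myeloid cells also use. The samples are sorted marrow cells whose label is hematopoietic stem cell (HSC), taken from wild-type mice aged 5 months as an MHCII-hi and an MHCII-lo fraction, by high or low surface MHC class II; the sort gates are not described in the sources used. Poly(A) RNA-seq gave 3 libraries of each fraction. Each deposited value was read as FPKM, a fragment count divided by transcript length and library size, so levels can be compared between genes per unit of length. No label ties a library to its own mouse, so p-values here cover only library-to-library spread and that spread may be technical. All libraries share the wild-type genotype and a title that begins with Ctrl, and the labels name no treatment.

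The B cell receptor is a membrane immunoglobulin with almost no intracellular part of its own, and it signals through the paired chains CD79A and CD79B. When antigen clusters the receptor, Src family kinases such as LYN and BLK phosphorylate the tyrosine motifs (ITAMs) of these chains. SYK docks there and phosphorylates the adaptor BLNK, on which BTK activates phospholipase C gamma 2. LYN also phosphorylates CD22, which recruits the phosphatase SHP-1 and dampens the signal. LYN, SYK and BTK do the same kind of work below Fc receptors and integrins in neutrophils, monocytes and mast cells, whereas a blood stem cell is not known to carry a B cell receptor.

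Of the 9 genes, 7 were higher in the MHCII-hi libraries and none was lower (limma, Benjamini-Hochberg adjusted p under 0.05 over the 12295 genes whose mean reached 1 FPKM). All 6 B-restricted genes rose, by ratios of mean FPKM between 4.01 for Cd79b and 11.7 for Cd79a. Of the 3 shared kinases, Syk rose 1.61-fold, and Btk and Lyn did not pass the test. Over all tested genes the same test called 27.2% higher and 40.5% lower, so a call by itself is common in this comparison. An increase of at least 1 on the log2(FPKM + 1) scale together with a call was found in 3.69% of tested genes and in all 6 B-restricted genes, and in none of the 3 shared kinases. Every MHCII-hi library lay above every MHCII-lo library for the same 7 genes, as it did for 29.6% of tested genes. The median log2 change was 1.92 for the B-restricted genes and 0.04 for the shared kinases, beside -0.08 over all tested genes. In bulk RNA, more cells of a type and more RNA per cell cannot be told apart.

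**Figure D1:**
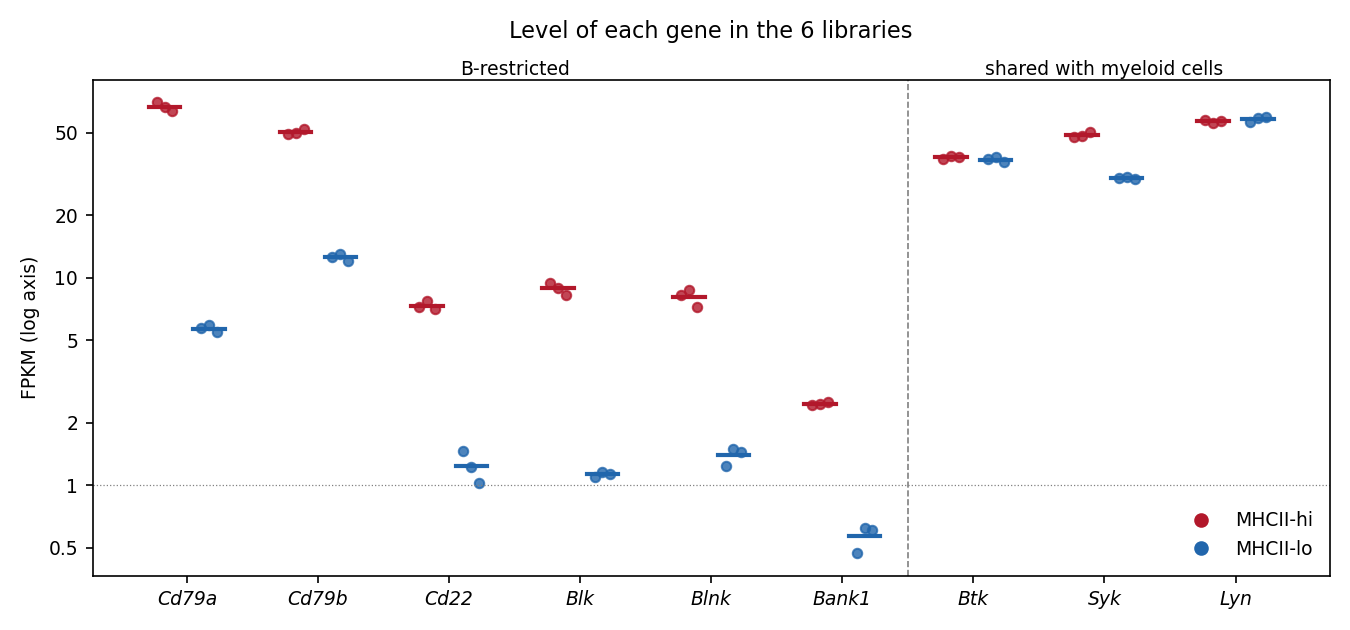
FPKM of each of the 9 genes in the 6 libraries on a log axis, with 1 point per library and a bar at each group mean; the dotted line marks 1 FPKM. MHCII-hi and MHCII-lo points are well apart for the 6 B-restricted genes and for Syk, and overlap for Btk and Lyn.

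Stretches before the RefSeq transcription start are shown for genes that moved together and, as a contrast, for Btk, which did not pass the test. Starts and sequences are those of RefSeq on GRCm38.p6, and Cd79a, Cd22, Blnk, Bank1, Btk and Syk had an entry. Except for Bank1, these starts lie inside the gene as GENCODE M21 bounds it. The searched windows of Cd22, Blnk, Btk and Syk lie wholly within those bounds, and that of Cd79a lies partly within them. Such a window is therefore upstream of the RefSeq start only, and other transcripts of the gene may start before it. The 250 bases before each start were searched on both strands for exact matches to short motifs. CCCNNGGG is a core bound by EBF1, and ATGCAAAT is the octamer bound by Oct factors. CAGGTG is an E-box bound by E2A, and GAGGAA is a core bound by PU.1. Matches are in capitals, and bases that GENCODE M21 annotates as exon in any transcript are left out. The Cd79a stretch is chr7:24897247-24897380 on the plus strand, and that of Cd22 is chr7:30879029-30879176 on the minus strand. The Bank1 stretch is chr3:136326067-136326316 and the Btk stretch chrX:134583141-134583390, both on the minus strand.
Cd79a: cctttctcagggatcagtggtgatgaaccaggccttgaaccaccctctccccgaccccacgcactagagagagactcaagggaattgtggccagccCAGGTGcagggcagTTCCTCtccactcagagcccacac
Cd22: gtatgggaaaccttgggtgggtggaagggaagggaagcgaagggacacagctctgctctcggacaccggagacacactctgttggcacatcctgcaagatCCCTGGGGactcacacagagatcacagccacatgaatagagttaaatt
Bank1: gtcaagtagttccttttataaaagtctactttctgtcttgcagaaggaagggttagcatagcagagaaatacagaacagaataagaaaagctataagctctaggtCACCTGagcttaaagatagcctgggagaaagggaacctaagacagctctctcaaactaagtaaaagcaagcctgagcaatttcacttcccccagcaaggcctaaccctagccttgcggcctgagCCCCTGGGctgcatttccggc
Btk: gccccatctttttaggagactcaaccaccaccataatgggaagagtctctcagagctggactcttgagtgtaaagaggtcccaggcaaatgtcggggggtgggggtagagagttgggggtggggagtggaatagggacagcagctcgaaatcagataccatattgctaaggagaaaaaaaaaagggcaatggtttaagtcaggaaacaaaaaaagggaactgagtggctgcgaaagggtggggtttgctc

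The E-box was found in the 250 bases of all 4 B-restricted genes with an entry and in those of Syk, against 17.2% of the 32851 promoters in the table. In Cd79a it lies at -154 to -149, with a PU.1 core on the minus strand at -140 to -135. All positions here count from the RefSeq start. The PU.1 core is held by 23.3% of all promoters. The EBF core was found letter for letter in Cd22, at -48 to -41, and in Bank1, at -21 to -14. It is held by 11.8% of all promoters. The Cd79a stretch holds ctcaaggg, which differs from CCCNNGGG by a single letter and so was not counted. Near matches were not searched for, so a window without a match may still hold a variant site. The octamer was found in Blnk, on the minus strand at -130 to -123, and 1.6% of all promoters hold it. The Btk window held no exact match to these 4 motifs, and no 2 matches overlapped. A match is a description of letters and was not tested as a binding site.

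Cd79a and Cd79b encode the obligate pair of signalling chains. Cd79a (ENSMUSG00000003379.7, chromosome 7, 24897381 to 24902197, plus strand, GRCm38) had 70.1, 66.9 and 63.4 FPKM in the MHCII-hi libraries, against 5.70, 5.90 and 5.46 FPKM in the MHCII-lo libraries. The groups were far apart, and Cd79a had the highest mean of the 9 genes in MHCII-hi and only the 5th highest in MHCII-lo. Its log2 change was 3.34 ± 0.04 (SE; limma adjusted p = 2.23e-08). Cd79b (ENSMUSG00000040592.11, chromosome 11, 106311341 to 106314762, minus strand) had 49.3, 49.7 and 52.1 FPKM in MHCII-hi, against 12.63, 12.99 and 12.01 FPKM in MHCII-lo. It was again higher in every MHCII-hi library, with a log2 change of 1.92 ± 0.04 (SE; limma adjusted p = 8.35e-08).

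The order of the 2 chains was opposite in the 2 fractions. The Cd79a to Cd79b ratio was 1.42, 1.35 and 1.22 in the MHCII-hi libraries, against 0.451, 0.454 and 0.455 in the MHCII-lo libraries. Every MHCII-hi library thus held more Cd79a than Cd79b per unit of length, and every MHCII-lo library less. The ratio averaged 1.33 ± 0.103 in MHCII-hi and 0.453 ± 0.0018 in MHCII-lo (SD, n = 3 each), a difference of 1.55 in log2 ratio. An exact two-sided permutation test over the 6 libraries gave p = 0.10, the smallest that 3 against 3 libraries allow, and the same adjusted over the 4 ratios tested. As a ratio within a library, the value does not depend on how the libraries were scaled.

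**Figure D2:**
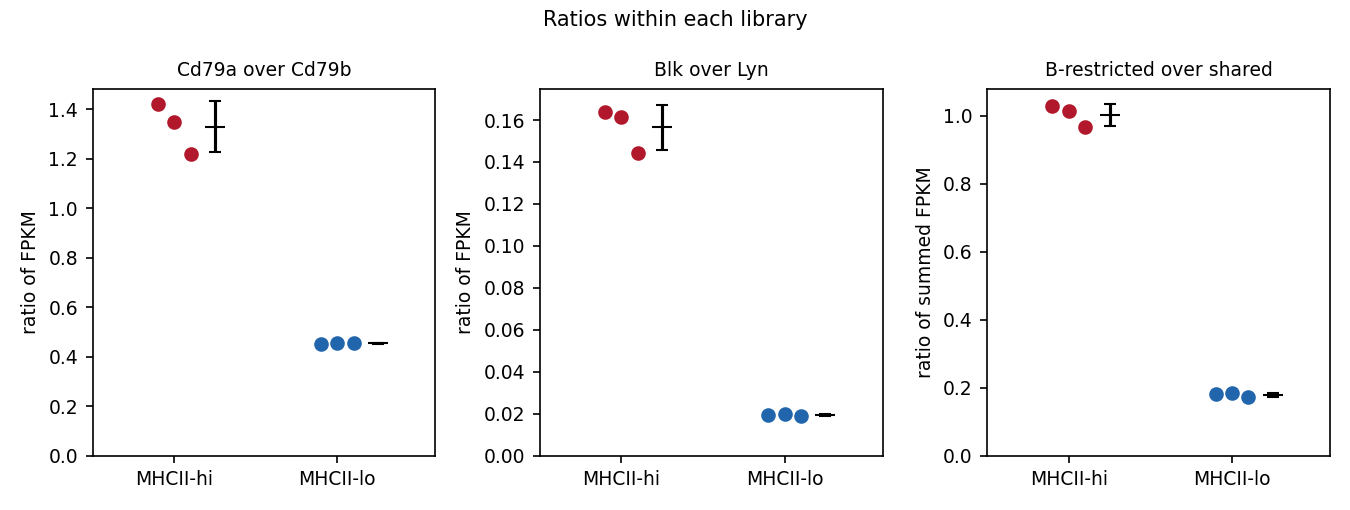
Ratios within each library, with 1 point per library and the mean with its SD beside them: Cd79a over Cd79b, Blk over Lyn, and the summed FPKM of the 6 B-restricted genes over that of Btk, Syk and Lyn. The Cd79a to Cd79b ratio lies above 1 in the MHCII-hi libraries and below 0.5 in the MHCII-lo libraries, and the last ratio lies between 0.966 and 1.03 in MHCII-hi and between 0.173 and 0.184 in MHCII-lo.

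Cd22, Blk, Blnk and Bank1 were expressed at lower levels than the signalling chains and rose with them. Cd22 (ENSMUSG00000030577.14, chromosome 7, 30865402 to 30880342, minus strand), the inhibitory lectin of B cells, had 7.22, 7.76 and 7.05 FPKM in MHCII-hi, against 1.46, 1.22 and 1.02 FPKM in MHCII-lo. The ratio of means was 5.95, and its log2 change was 1.91 ± 0.08 (SE; limma adjusted p = 2.34e-06). Even the lowest MHCII-hi library stood 4.83 times above the highest MHCII-lo library. Blk (ENSMUSG00000014453.4, chromosome 14, 63372836 to 63417037, minus strand) encodes the Src family kinase named for B lymphocytes. It had 9.44, 8.97 and 8.24 FPKM in MHCII-hi, against 1.10, 1.16 and 1.13 FPKM in MHCII-lo, a ratio of means of 7.86. Its log2 change of 2.21 ± 0.06 (SE; limma adjusted p = 2.77e-07) was the second in size among the 9 genes.

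Blnk (ENSMUSG00000061132.13, chromosome 19, 40928927 to 40994535, minus strand), the adaptor that SYK phosphorylates, had 8.22, 8.71 and 7.19 FPKM in MHCII-hi, against 1.24, 1.50 and 1.45 FPKM in MHCII-lo. The groups did not overlap, with a ratio of means of 5.76 and a log2 change of 1.91 ± 0.08 (SE; limma adjusted p = 1.98e-06). Bank1 (ENSMUSG00000037922.13, chromosome 3, 136053363 to 136326066, minus strand), a scaffold of B cells that binds LYN, was the least abundant. It had 2.44, 2.45 and 2.53 FPKM in MHCII-hi, against 0.47, 0.62 and 0.61 FPKM in MHCII-lo, where no library reached 1 FPKM. Bank1 therefore entered the test through its MHCII-hi level. The ratio of means was 4.36, and the log2 change of 1.15 ± 0.07 (SE; limma adjusted p = 1.38e-05) understates it, because 1 was added to each FPKM before the log.

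**Figure D3:**
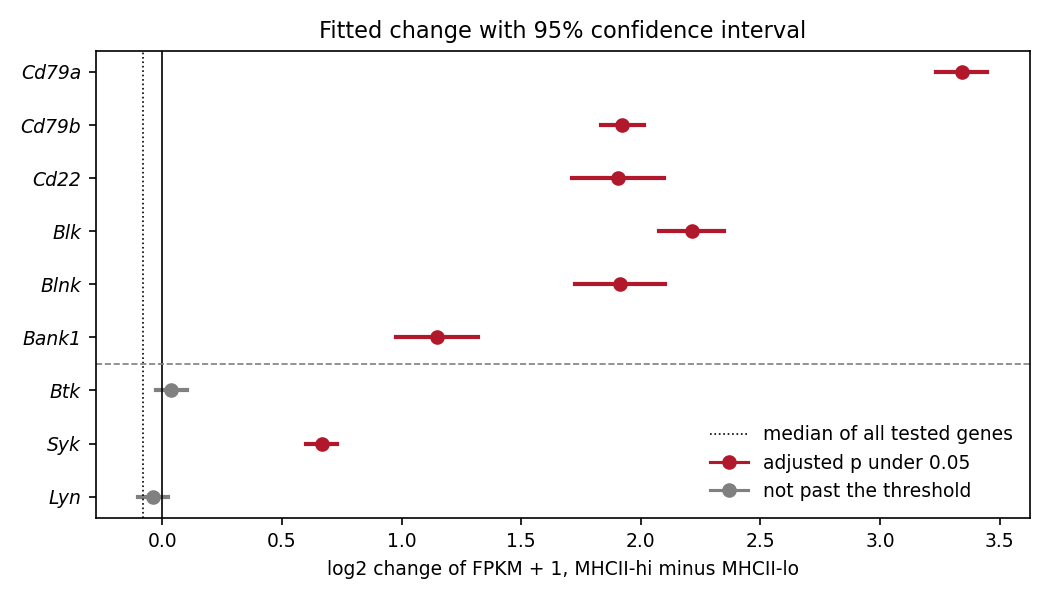
Fitted log2 change of FPKM + 1, MHCII-hi minus MHCII-lo, for each of the 9 genes, with its 95% confidence interval from limma; the dotted line is the median of all tested genes. Changes of the 6 B-restricted genes lie between 1.15 and 3.34, Syk lies at 0.67, and the intervals of Btk and Lyn include 0.

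The 3 shared kinases were already abundant in the MHCII-lo fraction. Lyn (ENSMUSG00000042228.14, chromosome 4, 3678115 to 3813122, plus strand) had 57.6, 55.5 and 57.1 FPKM in MHCII-hi, against 56.6, 58.8 and 59.4 FPKM in MHCII-lo. The groups overlapped, and the log2 change was -0.04 with a 95% interval from -0.10 to 0.02 (limma adjusted p = 0.234). Btk (ENSMUSG00000031264.13, chromosome X, 134542336 to 134583570, minus strand), the kinase whose mutation causes the X-linked immunodeficiency of xid mice, had 37.5, 38.8 and 38.2 FPKM in MHCII-hi, against 37.3, 38.0 and 36.2 FPKM in MHCII-lo. Its groups overlapped too, with a log2 change of 0.04 and a 95% interval from -0.03 to 0.10 (limma adjusted p = 0.257). These intervals allow a change of FPKM + 1 by a factor of 0.932 to 1.02 for Lyn and 0.981 to 1.07 for Btk. Immunoglobulin gene segments took 8.26% to 8.34% of the FPKM in MHCII-hi, against 0.392% to 0.458% in MHCII-lo. With the segments removed and the rest rescaled, Btk passed as higher (log2 change 0.15, limma adjusted p = 0.00215) and Lyn turned to 0.08 and passed (limma adjusted p = 0.032), beside a median of 0.01 over all genes under that scaling.

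Syk (ENSMUSG00000021457.14, chromosome 13, 52583173 to 52648792, plus strand), which binds the phosphorylated ITAMs, departed from the other two. It had 47.5, 48.4 and 50.2 FPKM in MHCII-hi, against 30.2, 30.6 and 30.1 FPKM in MHCII-lo. The groups were clearly separate, with a log2 change of 0.67 ± 0.03 (SE; limma adjusted p = 1.87e-06). The rise was nevertheless smaller than that of each B-restricted gene. The Cd79a to Syk ratio was 1.37 ± 0.107 in MHCII-hi and 0.188 ± 0.00554 in MHCII-lo (SD, n = 3 each), and the Blnk to Syk ratio 0.165 ± 0.0196 in MHCII-hi and 0.0461 ± 0.00437 in MHCII-lo (SD, n = 3 each). The Blk to Lyn ratio was 0.157 ± 0.0107 in MHCII-hi and 0.0194 ± 0.000351 in MHCII-lo (SD, n = 3 each). Each of these 3 ratios had an exact permutation p of 0.10, the smallest possible.

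Ranked by mean FPKM, the order in MHCII-hi was Cd79a, Lyn, Cd79b, Syk, Btk, Blk, Blnk, Cd22 and Bank1. Neighbours with overlapping libraries there were Cd79b and Syk, Blk and Blnk, and Blnk and Cd22. In MHCII-lo the order was Lyn, Btk, Syk, Cd79b, Cd79a, Blnk, Cd22, Blk and Bank1, with overlap between Blnk and Cd22 and between Cd22 and Blk. The 3 kinases led in MHCII-lo, whereas in MHCII-hi Cd79a stood above all of them. The 6 B-restricted genes summed to 146.7, 144.5 and 140.5 FPKM in the MHCII-hi libraries, against 22.6, 23.4 and 21.7 FPKM in the MHCII-lo libraries. The 3 shared kinases summed to 142.5, 142.7 and 145.5 FPKM in MHCII-hi, against 124.2, 127.5 and 125.6 FPKM in MHCII-lo. The summed levels were thus near 1 to 1 in MHCII-hi and well below that in MHCII-lo.

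Of 11 other kinases of the Src, Syk and Tec families, 8 were tested and these 8 rose, where 27.2% of all tested genes did. Their log2 changes ran from 0.28 to 0.72 around 0.57, the median. Lck, of T cells, had a log2 change of 0.72. Fgr, of myeloid cells, had one of 0.62, and the widely expressed Fyn one of 0.60. Yes1, Src and Txk averaged under 1 FPKM and had no test, and the libraries of the 2 fractions overlapped for Yes1 and Src.

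Of 12 coreceptors and inhibitory receptors of the pathway, 10 were tested and these 10 rose, against 27.2% of all tested genes. Cd5 and Fcrl1 averaged under 1 FPKM in MHCII-lo and so entered the test through their MHCII-hi level. The log2 changes of the 10 tested genes ran from 0.24 to 3.36 around a median of 0.91. Fcrla, an Fc receptor-like protein inside B cells, had 23.9 ± 2.14 FPKM in MHCII-hi and 1.43 ± 0.219 FPKM in MHCII-lo (SD, n = 3 each, as for the other values of this paragraph). Cd72, an inhibitory receptor, rose 4.89-fold and Siglecg, a lectin related to CD22, rose 2.46-fold. Cd81, a tetraspanin that many cell types carry, had the smallest log2 change of the 10, with 14.2 ± 0.254 FPKM in MHCII-hi and 11.9 ± 0.216 FPKM in MHCII-lo. The complement receptor Cr2 averaged 0.247 FPKM in MHCII-hi and 0.00333 FPKM in MHCII-lo, and Fcrl5 averaged 0.363 FPKM in MHCII-hi and was listed at 0 in all MHCII-lo libraries, and neither was tested.

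Of 23 adaptors and effectors downstream of the receptor, 22 were tested, 11 rose, 5 fell and 6 did not pass, with a median log2 change of 0.12. Over all tested genes 27.2% rose and 40.5% fell, so calls in both directions are the usual case here. Of the partners Malt1 and Bcl10, on the way to NF-kB, Malt1 rose by 0.16 on the log2 scale and Bcl10 fell by 0.24. Pik3ap1, the PI3 kinase adaptor BCAP, rose 1.92-fold, the transcription factor Nfatc1 rose 1.83-fold and the calcium channel Itpr3 rose 1.79-fold. The exchange factors Vav1 and Vav3 fell by 0.36 and 0.39 on the log2 scale, Shc1 by 0.14 and Itpr1 by 0.25. Plcg2, the substrate of BTK, had 75.6 ± 0.483 FPKM in MHCII-hi and 61.2 ± 0.932 FPKM in MHCII-lo (SD, n = 3 each). The exchange factor Rasgrp3 averaged 1.25 FPKM in MHCII-hi and 0.107 FPKM in MHCII-lo and was not tested.

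All 13 phosphatases and other negative regulators were tested, and 10 rose, 1 fell and 2 did not pass, beside 27.2% higher and 40.5% lower over all tested genes. Their median log2 change was 0.33. Lax1, an adaptor that restrains lymphocyte receptors, rose most, with 14.2 ± 0.815 FPKM in MHCII-hi and 4.14 ± 0.348 FPKM in MHCII-lo (SD, n = 3 each). Dok2, Pag1 and Dok3 rose 1.73-fold, 1.57-fold and 1.47-fold, and Dok1 fell by 0.44 on the log2 scale. Cbl, a ubiquitin ligase, averaged 29.5 FPKM in both fractions and Ubash3b had a log2 change of -0.05, and both missed the threshold. Ptpn6, which encodes the phosphatase SHP-1 that CD22 recruits, had 121 ± 0.615 FPKM in MHCII-hi and 99.8 ± 0.924 FPKM in MHCII-lo (SD, n = 3 each).

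**Figure D4:**
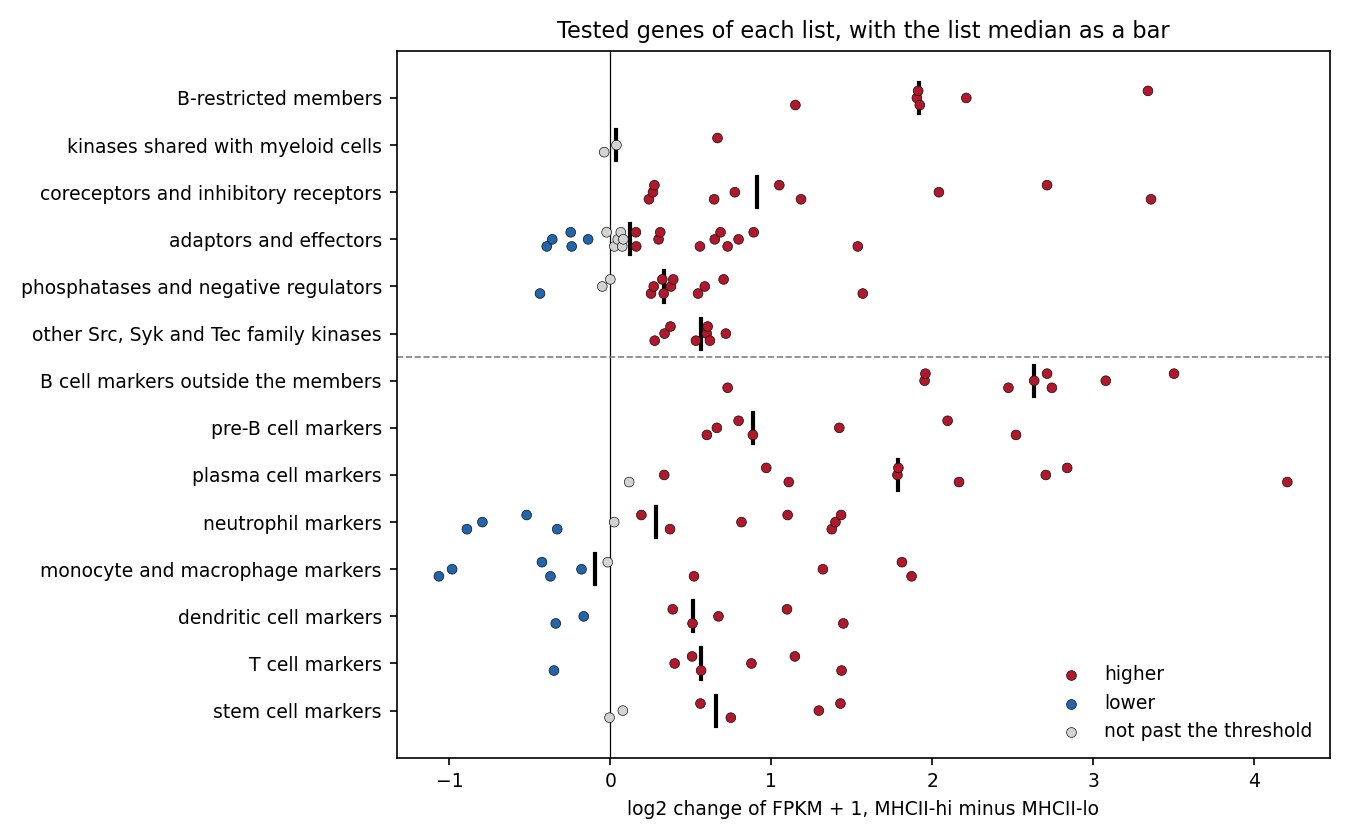
Log2 change of FPKM + 1, MHCII-hi minus MHCII-lo, of the tested genes of each list, with 1 point per gene coloured by its call and a bar at the list median; lists above the dashed line belong to the pathway and those below it are cell type markers. The medians are 1.92 for the B-restricted genes, 0.04 for the shared kinases, 2.63 for the B cell markers and 0.28 for the neutrophil markers.

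Markers of several cell types moved in the same comparison, in which 27.2% of all tested genes were called higher and 40.5% lower. Of 11 B cell markers outside the 9 genes, 9 were tested and these 9 rose. Of these, Ms4a1, Ebf1 and Fcmr averaged under 1 FPKM in MHCII-lo and, like Bank1, were tested only because of their MHCII-hi level. The same holds for the plasma cell markers Prdm1, Tnfrsf17 and Derl3, the pre-B cell marker Rag2, the macrophage markers C1qa, C1qb and C1qc, the T cell marker Cd4 and Hlf among the stem cell markers, so these counts are descriptions. The B cell markers' median log2 change was 2.63, and their summed level was 252 to 256 FPKM in MHCII-hi and 60.3 to 62.7 FPKM in MHCII-lo. Of 10 plasma cell markers, 9 rose and Fkbp11 did not pass, with a summed level of 476 to 481 FPKM in MHCII-hi and 80.9 to 84.0 FPKM in MHCII-lo. Jchain, the joining chain of secreted antibody, was the most abundant of them in MHCII-hi at 341 FPKM, and Xbp1 in MHCII-lo at 54.0 FPKM. Of 8 pre-B cell markers, 7 were tested and these 7 rose, and the 8 summed to 89.0 to 96.6 FPKM in MHCII-hi and 34.2 to 37.0 FPKM in MHCII-lo. No marker of these lists was at 0 in all 6 libraries. The part that cells of the B lineage in the sorted fractions had in the rise of the B-restricted genes was not tested.

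Myeloid markers were far more abundant than the receptor genes in both fractions. The counts of calls in this paragraph stand beside 27.2% higher and 40.5% lower over all tested genes. The 12 neutrophil markers summed to 21740 to 22030 FPKM in MHCII-hi and 16550 to 16630 FPKM in MHCII-lo, with 7 higher, 4 lower (Elane, Mpo, Prtn3 and Ctsg) and 1 not past the threshold. The 10 monocyte and macrophage markers summed to 622 to 625 FPKM in MHCII-hi and 838 to 864 FPKM in MHCII-lo, with 4 higher and 5 lower. Of 9 dendritic cell markers, 7 were tested, 5 rose and Bst2 and Irf8 fell, and of 7 T cell markers 6 rose and Cd3d fell. Dendritic cell markers summed to 149 to 154 FPKM in MHCII-hi and 132 to 134 FPKM in MHCII-lo, and T cell markers to 51.1 to 55.3 FPKM in MHCII-hi and 27.2 to 30.8 FPKM in MHCII-lo. The part of these cell types in the levels of Btk, Syk and Lyn was not tested. Of 10 stem cell markers, Slamf1, Procr, Mecom and Fgd5 stayed below 1 FPKM in every library, 4 of the 6 tested rose, and Kit and Cd34 did not pass.

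The 5 genes whose centred log2 profile over the 6 libraries lay nearest to that of Cd79a, immunoglobulin segments aside, were H2-Aa, H2-Ab1, Cd74, Fcmr and Fcrla. Their Euclidean distances from it on the log2(FPKM + 1) scale were 0.133, 0.167, 0.230, 0.301 and 0.318 in that order. H2-Aa had 79.7 to 81.3 FPKM in MHCII-hi and 7.30 to 7.37 FPKM in MHCII-lo, and its log2 change of 3.29 was close to the 3.34 of Cd79a. MHC class II was the basis of the sort, so the class II genes among these 5 are no finding. With 3 libraries a fraction, such a profile mostly reflects the size of a single difference. The heavy chains of the receptor rose as well, with Ighm at 855 ± 1.74 FPKM in MHCII-hi and 164 ± 1.26 FPKM in MHCII-lo, and Ighd at 12.99 ± 0.688 FPKM in MHCII-hi and 1.24 ± 0.0551 FPKM in MHCII-lo (SD, n = 3 each).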

How the data were processed

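The authors deposited 1 table per library, with a gene symbol and 1 value per row. The deposited values were taken as FPKM from the values themselves, since the headers name the library but no unit. Per the submitters' processing notes, fastp, HISAT2 and StringTie were used with the builds GRCm38 and mm10. Versions, settings, the annotation and the use of strand: not given in the sources used here. Per the labels' protocols the library kit was stranded. Genes on the other strand overlap Cd22, Bank1, Btk and Lyn in GENCODE M21, and those with values averaged at most 0.608 FPKM, with Gm29439, over Cd22, not analysed here. FPKM is relative to the library total, so an abundant transcript lowers all others. Read depth is unknown, so counting intervals cannot be given.

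Of 30803 rows, 67 symbols occurred more than once; of such rows the most abundant kept the symbol, and 70 others got a row name. Each of the 9 genes had 1 row. Column totals were 333347 to 333530 in MHCII-hi and 305934 to 306945 in MHCII-lo. Pearson's r of log2(FPKM + 1) across tested genes, which are not independent, was 0.990 to 0.994 within a group and 0.905 to 0.909 across groups. No 2 libraries were identical.

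Groups came from the sample titles. The 12295 genes whose mean reached 1 FPKM were put on the log2(FPKM + 1) scale. The contrast of MHCII-hi with MHCII-lo was fitted with limma 3.58.1 in R 4.3.3, using its trended empirical Bayes test. P-values are two-sided and Benjamini-Hochberg adjusted over all tested genes, with a threshold of 0.05. Folds are ratios of mean FPKM. The fit was tested on simulated data. Ratios within libraries were compared by exact permutation of the 6 libraries. Lists are described by counts and medians, with no list test. The members and lists were chosen with earlier results of these data known. All 9 members are named, and some genes of the other lists enter the counts, medians and sums but are not reported here one by one. From the other lists up to 4 genes with the largest changes past the threshold were eligible, plus genes that complete a count of 5 or fewer, and Cd81, Plcg2, Malt1, Ptpn6 and the untested genes were chosen after their values were seen. Alternatives were other pseudocounts, filters, scalings, a test with no trend, a replicate block, and leaving out each library in turn. Promoters came from RefSeq. Python 3.11.15 with pandas 2.3.3 and matplotlib 3.10.9 handled tables and figures.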

Additional observations from a re-analysis of the deposited data

How the results depend on the processing

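The 7 genes called higher stayed at 7 with each library left out, and no gene was called lower under any of the 15 alternatives. With each library left out, the B-restricted median lay between 1.90 and 1.96 and that of the shared kinases between 0.02 and 0.05. The B-restricted median was 2.47 with a pseudocount of 0.1 and 2.55 with 0.01, since a smaller pseudocount shrinks low genes less. With a mean of at least 5 FPKM it was 2.21 and 4 genes were called higher, because Cd22, Blnk and Bank1 are not tested there. With immunoglobulin segments removed it was 2.03, the median of the shared kinases was 0.15, Lyn turned to 0.079 and passed, Btk passed, and all 9 genes were called higher. The 6 B-restricted genes and Syk passed under every alternative in which they were tested. Libraries of the 2 groups share replicate numbers, and deviations of same-numbered libraries from their group means correlated at 0.063, 0.002 and 0.080. For 4 of the 6 libraries, the best-correlated library of the other group had the same number. With so few libraries, whether the numbers pair them cannot be told from these values. With the replicate number as a block, 7 genes were called higher and none lower, and the medians were 1.92 and 0.04. The difference between the changes of Cd79a and Cd79b lay between 1.37 and 1.55 on the log2 scale over all alternatives. The unknown depth leaves the counting error of genes near 1 FPKM, such as Bank1, unmeasured.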

Other observations

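Set against the heavy chain Ighm in the same library, the B-restricted genes did not all keep their proportion. Cd79a per Ighm was 0.0781 ± 0.00389 in MHCII-hi and 0.0346 ± 0.00112 in MHCII-lo (SD, n = 3 each). Blk per Ighm was 0.0104 ± 0.000705 in MHCII-hi and 0.00687 ± 0.000191 in MHCII-lo (SD, n = 3 each). Cd79b per Ighm was lower in MHCII-hi, at 0.0589 ± 0.00182, than in MHCII-lo, at 0.0763 ± 0.0025 (SD, n = 3 each). For Cd22, Blnk and Bank1 the libraries of the 2 fractions overlapped, with Blnk per Ighm at 0.0094 ± 0.000893 in MHCII-hi and 0.0085 ± 0.000862 in MHCII-lo (SD, n = 3 each). These ratios were not tested, and Ighm is also made by plasma cells, whose markers Jchain, Mzb1 and Irf4 rose 19.4-fold, 9.86-fold and 9.01-fold.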
